A study of Arabidopsis thaliana with 18 samples.

Results

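The chloroplast genome of Arabidopsis thaliana encodes core subunits of the photosynthetic machinery and of the chloroplast's own RNA polymerase. The genes described here are 51 of them, chosen by name from the plastid genome: subunits of photosystem I and photosystem II, of the cytochrome b6f complex, of the ATP synthase, of the NDH complex and of the RNA polymerase, with rbcL, accD, ccsA and matK beside them. A probe set paired with 1 gene was found for 50 of the 51, each with 1 probe set. The probe set for ndhB was paired with both gene copies in the inverted repeat and was not used. The 50 genes were 5 of photosystem I, 15 of photosystem II, 6 of cytochrome b6f, 6 of the ATP synthase, 10 of the NDH complex, 4 of the RNA polymerase and 4 others. They were among 69 plastid genes with a named probe set, 13513 probe sets with 1 named gene and 22810 probe sets in all.

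Photosystem II splits water and passes electrons through cytochrome b6f to photosystem I, and the ATP synthase uses the proton gradient that this flow builds. The NDH complex returns electrons around photosystem I, and rbcL encodes the large subunit of Rubisco, which fixes carbon dioxide. In leaves most of these genes are transcribed by the polymerase whose core subunits are rpoA, rpoB, rpoC1 and rpoC2, in long transcripts that are cut, edited and trimmed with proteins made from nuclear genes.

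Leaves of plants that were 2 weeks old were measured on 18 Affymetrix arrays, 3 in each of 6 groups. Every group, the reference included, had been under 150 mM NaCl for 24 hours, so no comparison here shows the effect of salt. The plants then received 0.1% aqueous methanol (the reference), MEA, which is a methanol extract made from Ascophyllum nodosum, a brown seaweed, or EAA, the ethyl acetate sub-fraction of it. Arrays were run on day 1 and day 5 for each; neither the plant accession nor the extract dose is named in the labels. The 6 arrays taken as reference carry conflicting labels, with NaCl in the source name and EAA in both the title and the description. Groups here were set by source name, on which every comparison with the reference depends. Titles call the arrays of a group biological replicates without naming separate plantings, so p-values measure the spread between these samples. Per the labels' protocols, cDNA was primed from poly(A) tails with poly(T) primers. Chloroplast mRNAs mostly lack stable poly(A) tails, and in chloroplasts a poly(A) tail marks RNA for breakdown, so how these signals follow the total amount of each transcript was not tested. In whole leaves, fewer chloroplasts, fewer cells of a type and less RNA per cell cannot be told apart.

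Values are deposited log2 signals, so a difference of 1 is a 2-fold change. Levels of different members are not read as relative transcript amounts. The number of arrays limits the precision: the median standard error of a member's difference was 0.18, beside 0.19 over all 13648 probe sets tested. A probe set was tested where its mean signal reached 4.01, and all 50 members passed. The leaf marker RCA, the only one of 17 leaf mesophyll markers matched here to a probe set named for 1 gene, had a mean signal of 13.60, and the root markers EXPA7 and PYK10, at 3.30 and 3.24, lay under the limit for testing. Replicates 1 and 3 of MEA on day 5 stood apart. On a scale over all tested probe sets where the reference mean is 0 on day 1 and 1 on day 5, they lay at 0.20 and 0.14, while replicate 2 lay at 1.00 and the 6 arrays of the reference and EAA on day 5 lay between 0.92 and 1.08. The main results with that group are therefore also given as replicate 2 alone, a single array whose p-values take their spread from the other groups. The difference between the actin probes at the 3′ and 5′ ends, a sign of RNA quality, was widest in replicate 1 of both extract groups on day 5, at 2.88 (MEA) and 2.78 (EAA). It was 2.30 in MEA day 5 replicate 3 and ran from 1.56 to 2.03 elsewhere.

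Most chloroplast-encoded genes kept nearly the same signal through the experiment. The range of a member's 6 group means had a median of 0.43, from 0.04 to 1.38, and was under 1 for 49 of 50 members (98%), against 76.5% of all tested probe sets, whose median range was 0.57. The ATP synthase genes atpA and atpE, for the catalytic head's alpha subunit and the central stalk's epsilon subunit, varied by 0.23 and 0.27 over all 18 arrays. Their mean signals were 12.72 and 13.45, and the highest value of any probe set was 14.02. Whether differences are compressed at such high signals was not tested. At the other end, ndhF varied by 2.75 and psaC by 1.97.

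**Figure D1:**
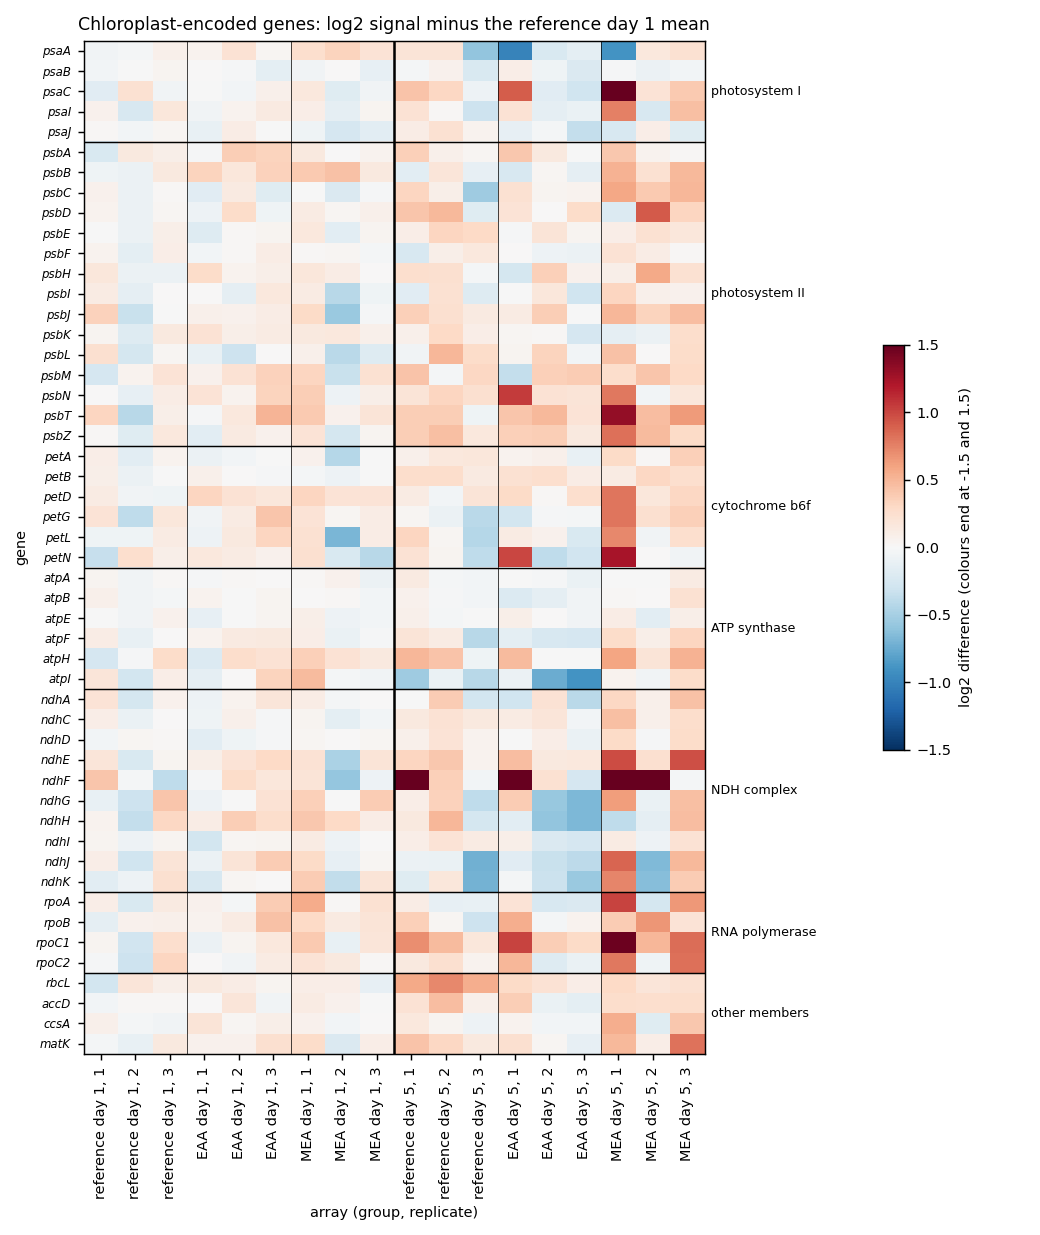
Log2 signal of each of the 50 chloroplast-encoded genes (rows, grouped by complex) on each of the 18 arrays (columns), as the difference from the gene's mean on reference day 1; red is higher and blue is lower. Most cells are pale, and the darkest column is MEA day 5 replicate 1, which is the highest of the 18 arrays for 25 genes.

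From day 1 to day 5 in the reference, 1 of 50 members passed at an adjusted p under 0.05 (limma, Benjamini-Hochberg over all tested probe sets), and 2 had an unadjusted p under 0.05. Of all tested probe sets 30.9% passed, and 42.6% had such an unadjusted p. The gene that passed was rbcL, which rose. The members' median difference was 0.13, from -0.35 to 0.61, against -0.01 over all tested probe sets, and 36 of 50 were positive. In 10 members (25.1% of all probe sets) the 3 day 5 values lay above the 3 day 1 values, and in none (28.3%) did they lie below. The 95% interval of the difference lay within 2-fold either way for 49 of 50 members, against 66.8% of all tested probe sets. Of 621 probe sets with a mean signal of at least 10, 38% passed in this comparison, and of the 32 members at that level 1 did.

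With EAA, 3 members fell from day 1 to day 5 (psbB, atpI and ndhH) and none rose, while 36.5% of all tested probe sets passed. The members' median difference was -0.04, from -0.73 to 0.57, and the interval lay within 2-fold for 44 of 50 (65.2% of all tested probe sets). An unadjusted p under 0.05 was found for 4 members (47.1% of all). The day 5 values lay below those of day 1 in 7 members (30.5% of all probe sets) and above in 3 (26.5%). With MEA none of 50 passed by limma, 13 had an unadjusted p under 0.05 (20.4% of all did), and 3.92% of all tested probe sets passed. There the members' median was 0.21, against -0.04 over all tested probe sets, and 46 of 50 were positive. As replicate 2 alone the median was 0.074, with 29 of 50 positive, against 0.026 over all tested probe sets. The interval with all 3 arrays lay within 2-fold for 43 of 50, against 78.9% of all tested probe sets. The day 5 values lay above those of day 1 in 12 members (8% of all probe sets) and below in none (12.1%).

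By complex, the reference medians from day 1 to day 5 were -0.03 for photosystem I, 0.22 for photosystem II, 0.03 for cytochrome b6f, 0.01 for the ATP synthase, 0.12 for the NDH complex and 0.09 for the RNA polymerase. With EAA they were -0.05, 0.08, -0.03, -0.10, -0.14 and 0.01 in the same order. With MEA they were 0.05, 0.25, 0.35, 0.06, 0.16 and 0.30, and as replicate 2 alone -0.031, 0.21, 0.13, -0.027, -0.064 and 0.084. Photosystem II had 12, 8 and 14 of its 15 genes above 0 in the reference, EAA and MEA, and 11 as MEA replicate 2 alone. No test was run between the subsets.

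**Figure D2:**
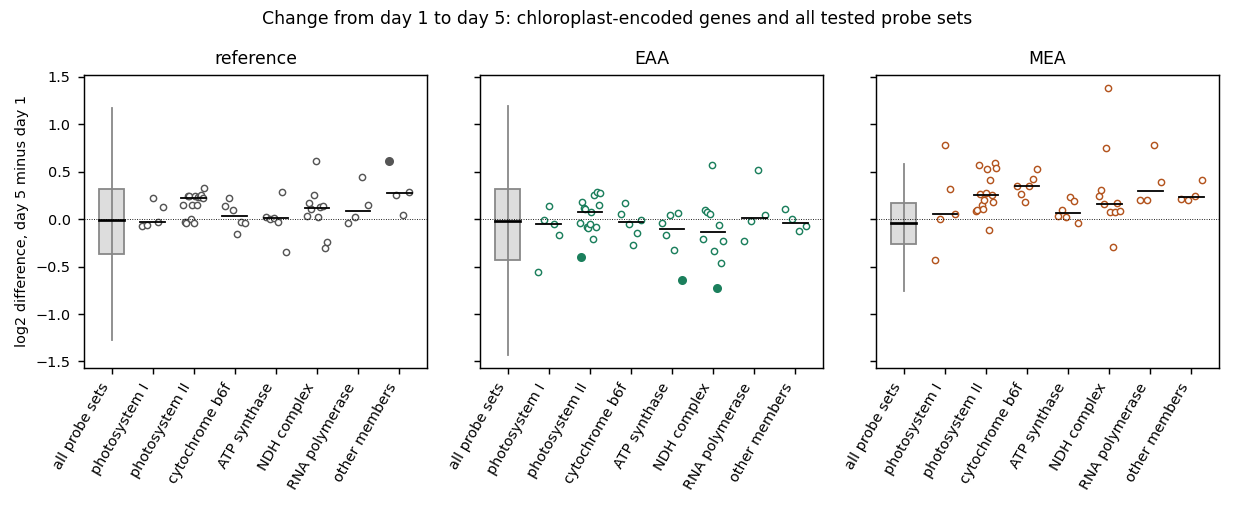
Log2 difference between day 5 and day 1 for each chloroplast-encoded gene (points) by complex, in the reference, EAA and MEA panels, beside all 13648 tested probe sets. In the reference the genes lie between -0.35 and 0.61, while all tested probe sets run from -6.87 to 6.04.

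After 1 day of extract no member passed in any of the 3 comparisons by limma. EAA against the reference had 0 members at an unadjusted p under 0.05, MEA against the reference had 1 (psbB), and EAA against MEA had 0, where 3.19%, 1.24% and 2.37% of all tested probe sets did. The shares of all tested probe sets that passed were 0.022%, 0% and 0.022%. The members' differences ran from -0.14 to 0.28, from -0.17 to 0.32 and from -0.20 to 0.30, with medians of 0.06, 0.02 and 0.03. For 49, 49 and 48 of the 50 the interval lay within 2-fold, against 88.7%, 90.3% and 89.3% of all tested probe sets.

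On day 5, no member passed between EAA and the reference by limma, 3 had an unadjusted p under 0.05 (7.45% of all did), and 0% of all tested probe sets passed. The median was -0.07, from -0.60 to 0.23. In 6 members (8.11% of all probe sets) all EAA values lay below all reference values: psaJ, psbK, petA, atpB, ndhI and rbcL. Between MEA and the reference, 2 members (psbB and petG) were higher with MEA, with 10.7% of all tested probe sets passing. The members' median was 0.18 against -0.03, and 43 of 50 were positive. Medians by complex were 0.02 for photosystem I, 0.11 for photosystem II, 0.33 for cytochrome b6f, 0.11 for the ATP synthase, 0.27 for the NDH complex and 0.44 for the RNA polymerase. As replicate 2 alone they were -0.023, 0.12, 0.065, -0.013, -0.13 and -0.077 in the same order, so only those of photosystem II and cytochrome b6f stayed above 0. Between EAA and MEA 1 member (psbB) was lower with EAA, with 3.85% passing, and the median was -0.26. The 2 comparisons with the reference share its arrays, as the EAA and MEA arrays are shared with the comparison between the extracts.

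The change of a treatment difference from day 1 to day 5 was tested as an interaction. None of 50 members passed for EAA by limma, where 0.00733% of all probe sets did, and none for MEA, where 0.103% did. At an unadjusted p under 0.05 there were 2 members each, against 4.76% and 13.9% of all. The members' medians were -0.13 for EAA and 0.13 for MEA, and -0.026 for MEA as replicate 2 of day 5 alone.

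**Figure D3:**
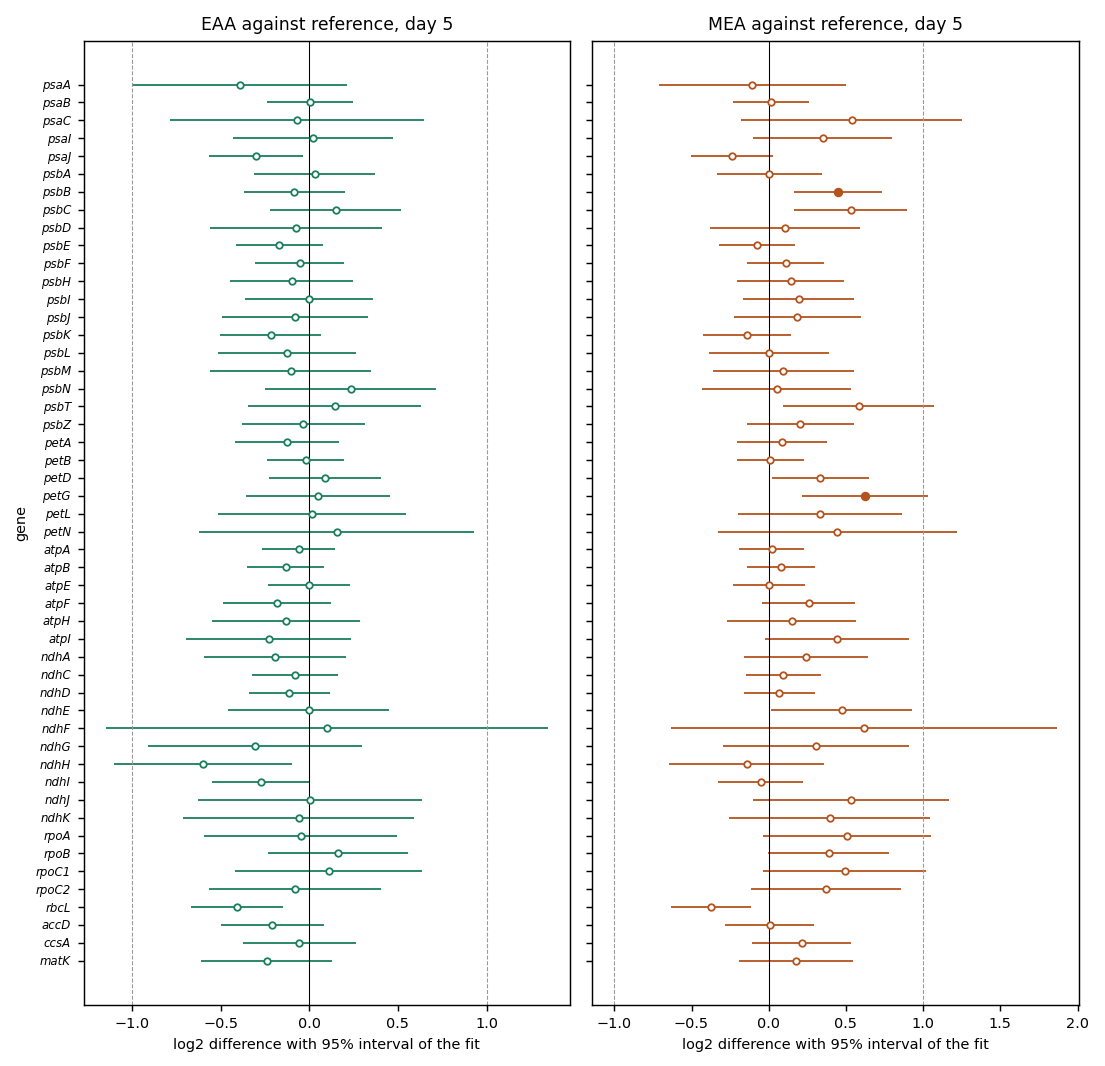
Log2 difference from the reference on day 5, with its 95% interval, for each chloroplast-encoded gene with EAA (left) and MEA (right); dashed lines mark 2-fold. In the EAA panel 48 of 50 intervals lie within 2-fold (85.2% of all tested probe sets) and none passed, and in the MEA panel 41 do (74.8%) and psbB and petG passed.

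On day 5 the 3 MEA arrays differed in their members' median. Relative to the reference day 1 mean, the members' median deviation was 0.42 in replicate 1, 0.08 in replicate 2 and 0.28 in replicate 3. In the other 15 arrays it ran from -0.10 to 0.21. As replicate 2 alone, the median of MEA against the reference on day 5 was -0.017 instead of 0.18, and that of EAA against MEA was -0.057 instead of -0.26. No member passed there by limma (6.69% and 0.205% of all probe sets did), but with 1 array in the group, assumed to vary like the others, the loss of a call does not show that a difference is absent. Replicate 2 lay above all 3 reference arrays of day 5 for 11 members, psbB, psbC and petG among them, and below all 3 for 12, where 32.9% and 30.6% of all tested probe sets did. Without replicate 2 instead, 14 members passed between MEA and the reference, 13 higher and 1 lower, with 40.2% of all probe sets passing, and 17 were lower with EAA than with MEA (43.2%). Their share thus stayed below that of all probe sets. In that fit the 13 higher members held 3 of the 4 polymerase genes, rpoA, rpoC1 and rpoC2, and counts for the other complexes are not given here. As replicate 2 alone, the differences of these 3 genes from the reference were -0.22, 0.056 and -0.21.

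**Figure D4:**
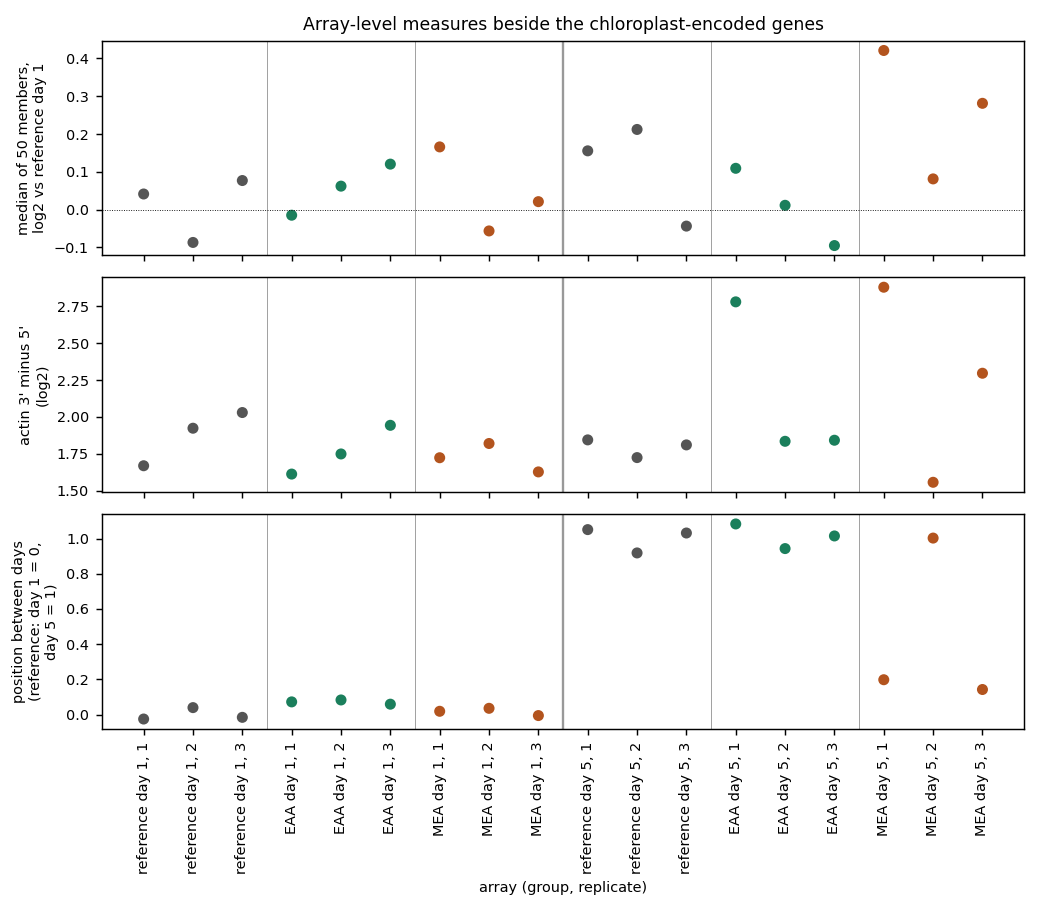
For each of the 18 arrays (columns, by group and replicate): the median deviation of the 50 genes from the reference day 1 mean, the actin 3′ minus 5′ log2 difference, and the position on the scale from the reference day 1 mean (0) to the day 5 mean (1) over all tested probe sets. MEA day 5 replicates 1 and 3 have the highest deviations, 0.42 and 0.28, and lie at 0.20 and 0.14 between the days.

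Replicate 1 of MEA and replicate 1 of EAA on day 5, the arrays with the widest actin difference, departed from the other 2 arrays of their own groups in the same direction for 36 of 50 members. Both were more than 0.5 away for 6 members. They were higher by 1.14 (EAA) and 1.38 (MEA) for psaC, by 0.84 and 0.73 for psbN, by 1.33 and 1.26 for petN, by 2.19 and 1.197 for ndhF, and by 0.69 and 0.80 for rpoC1. For psaA the departures were -0.81 and -1.09. The part of RNA quality in these values was not tested. Taken singly, the EAA array was more than 0.5 from the other 2 for 22% of members and 21.8% of all tested probe sets. For the MEA array these shares were 32% and 24.9%. Shares of all probe sets for the 2 arrays together are not given here, so the counts of 36 and 6 are not read as a trait of the members. The deviations by array and the actin differences are set side by side in the plot of array-level measures.

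Of the 4 genes outside the complexes, rbcL for the Rubisco large subunit was the member that passed in the reference. Its signals on day 1 were 10.06, 10.51 and 10.41 in the reference, 10.47, 10.44 and 10.37 with EAA, and 10.43, 10.43 and 10.20 with MEA. On day 5 they were 10.90, 11.05 and 10.86 in the reference, 10.61, 10.54 and 10.43 with EAA, and 10.63, 10.51 and 10.55 with MEA. The 3 reference arrays of day 5 were the highest of the 18 and overlapped with no other group. In the reference rbcL rose by 0.61 (SE 0.12, n = 3 and 3, adjusted p = 0.00188, limma), from 10.32 ± 0.24 to 10.94 ± 0.10 (SD). The day 5 minus day 1 differences were 0.10 with EAA (adjusted p = 0.534) and 0.21 with MEA (adjusted p = 0.338). On day 5 rbcL was 0.41 log2 units below the reference with EAA (95% interval -0.67 to -0.15, adjusted p = 0.536) and 0.37 below with MEA (-0.63 to -0.11, adjusted p = 0.0641), which did not pass by limma. The interactions were -0.51 and -0.40, with adjusted p of 0.890 and 0.322, so a difference in the rise between treatments was not shown. The rise in the reference held in 11 of 11 alternative settings, between 0.58 and 0.70, and in 6 of 6 fits that left out 1 array, between 0.48 and 0.70. Some of those settings, such as another filter or no trend, can change the p-value but not the difference.

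The gene accD encodes a subunit of the chloroplast acetyl-CoA carboxylase, which starts fatty acid synthesis. Its day 1 signals were 9.41, 9.47 and 9.47 in the reference, 9.45, 9.63 and 9.40 with EAA, and 9.57, 9.52 and 9.44 with MEA. Those of day 5 were 9.67, 9.91 and 9.53, then 9.82, 9.35 and 9.30, then 9.71, 9.70 and 9.72. The days did not overlap in the reference or with MEA, and overlapped with EAA. The reference difference was 0.25 (adjusted p = 0.172). For matK, an intron splicing factor, it was 0.29, and for ccsA, needed to attach haem to cytochrome c proteins, 0.04; neither passed by limma.

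**Figure D5:**
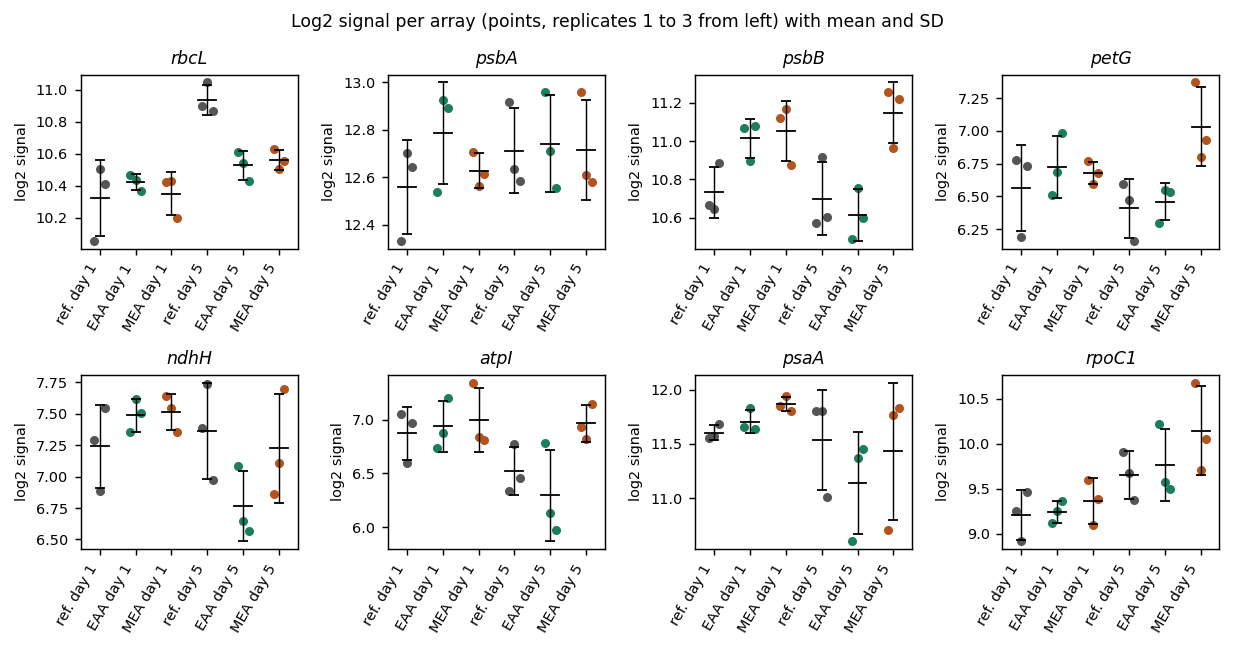
Log2 signal on each array (points, replicates 1 to 3 from left) with the group mean and SD (n = 3) for selected chloroplast-encoded genes, one panel each with its own axis, in the 6 groups. For rbcL the 3 reference day 5 arrays, at 10.86 to 11.05, lie above all other arrays, and for psbB the EAA day 5 arrays lie below the EAA day 1 arrays.

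In photosystem II, psbA and psbD encode the reaction centre proteins, of which the psbA product is replaced continually in light. For psbA the day 1 signals were 12.33, 12.70 and 12.64 in the reference, 12.54, 12.92 and 12.89 with EAA, and 12.71, 12.56 and 12.61 with MEA. Those of day 5 were 12.92, 12.63 and 12.59, then 12.96, 12.71 and 12.56, then 12.96, 12.61 and 12.58. All 6 groups overlapped, and the 9 differences between groups lay from -0.04 to 0.23. The widest of their 95% intervals reached 0.57. For psbD the day 1 signals were 9.90, 9.76 and 9.87, then 9.77, 10.12 and 9.78, then 9.97, 9.87 and 9.92 in the same order. Day 5 gave 10.26, 10.33 and 9.66, then 10.05, 9.85 and 10.12, then 9.64, 10.77 and 10.17. The lowest and the highest of the 18 psbD values were thus both in MEA on day 5, from replicates 1 and 2, and no comparison of psbD passed by limma.

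The genes psbB and psbC encode the inner antenna proteins that pass light energy to that reaction centre. Signals of psbB on day 1 were 10.67, 10.64 and 10.88 in the reference, 11.07, 10.90 and 11.08 with EAA, and 11.12, 11.17 and 10.88 with MEA. By day 5 they were 10.57, 10.92 and 10.61 in the reference, 10.49, 10.76 and 10.60 with EAA, and 11.26, 10.96 and 11.22 with MEA. The EAA arrays of day 5 lay below those of day 1, and the MEA arrays of day 5 lay above both other groups of that day. With EAA psbB fell by 0.40 from day 1 to day 5 (SE 0.13, adjusted p = 0.0303, limma). On day 5 psbB was 0.45 higher with MEA than in the reference (adjusted p = 0.0464), and with EAA against MEA the difference was -0.53 (adjusted p = 0.0442). All 3 calls were near the threshold. As MEA replicate 2 alone, a single array, the difference from the reference was 0.27 (adjusted p = 0.418, limma) and EAA against MEA was -0.35 (adjusted p = 0.470), in the same directions. The fall with EAA did not pass when replicate 1 or 3 of either EAA group was left out (4 of 6 such fits). The interaction for EAA was -0.37 and did not pass.

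For psbC the day 1 signals were 11.54, 11.39 and 11.50 in the reference, 11.31, 11.61 and 11.29 with EAA, and 11.46, 11.26 and 11.45 with MEA. The day 5 signals were 11.80, 11.56 and 10.95, then 11.70, 11.52 and 11.53, then 12.06, 11.87 and 11.97. All 3 MEA arrays of day 5, replicate 2 included, were above the other 15 arrays. The difference from MEA day 1 was 0.57 (SE 0.17, adjusted p = 0.0782) and that from the reference on day 5 was 0.53 (adjusted p = 0.0616), neither passing by limma. They were 0.48 and 0.43 as replicate 2 alone.

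The small subunit gene psbZ had day 1 signals of 11.42, 11.21 and 11.56, of 11.24, 11.53 and 11.46, and of 11.60, 11.13 and 11.44 in the reference, EAA and MEA. On day 5 they were 11.77, 11.85 and 11.55, then 11.76, 11.76 and 11.54, then 12.23, 11.87 and 11.68. The days did not overlap with EAA or MEA, and the reference difference, 0.33 (adjusted p = 0.140), was the largest of this complex. For psbE, a subunit of the photosystem's own cytochrome, the day 1 signals were 10.35, 10.27 and 10.44, then 10.17, 10.37 and 10.40, then 10.51, 10.20 and 10.40. Those of day 5 were 10.45, 10.68 and 10.66, then 10.33, 10.55 and 10.39, then 10.46, 10.58 and 10.52. Only in the reference did the days of psbE not overlap (0.24, adjusted p = 0.128). Over the 15 genes the reference differences ran from -0.04 (psbI) to 0.33.

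In photosystem I, psaC encodes the subunit that carries the terminal iron-sulphur clusters. Its day 1 signals were 9.45, 9.85 and 9.57 in the reference, 9.62, 9.58 and 9.69 with EAA, and 9.78, 9.44 and 9.57 with MEA. Day 5 gave 10.05, 9.93 and 9.54, then 10.53, 9.45 and 9.33, then 11.30, 9.82 and 10.01. The highest psaC values were in replicate 1 of MEA and of EAA on day 5. Its MEA difference between days was 0.78 with an interval of 0.07 to 1.50 (adjusted p = 0.201), and 0.23 as replicate 2 alone. The small subunit gene psaJ had day 1 signals of 12.90, 12.83 and 12.90, of 12.77, 12.99 and 12.86, and of 12.81, 12.63 and 12.72 in the 3 treatments. By day 5 they were 12.99, 13.11 and 12.93, then 12.75, 12.85 and 12.52, then 12.64, 12.98 and 12.70. With EAA its day 5 values lay below those of the reference by 0.30 (adjusted p = 0.607).

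In cytochrome b6f, petB encodes cytochrome b6 and petD encodes the subunit that completes it. Signals of petB on day 1 were 13.23, 13.05 and 13.14 in the reference, 13.22, 13.15 and 13.12 with EAA, and 13.11, 13.06 and 13.14 with MEA. The day 5 signals were 13.40, 13.40 and 13.27, then 13.37, 13.40 and 13.25, then 13.26, 13.45 and 13.40. In each treatment every day 5 value was above every day 1 value, all 18 values lying within 0.40. The differences were 0.22, 0.17 and 0.27 (adjusted p = 0.115, 0.193 and 0.154), none passing by limma. With each array centred on its median, petB passed in the reference and with EAA.

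For petD the day 1 signals were 5.55, 5.37 and 5.35, then 5.74, 5.64 and 5.59, then 5.75, 5.63 and 5.62 in the reference, EAA and MEA. On day 5 they were 5.55, 5.39 and 5.62, then 5.71, 5.44 and 5.68, then 6.22, 5.59 and 5.74. On day 1 both extract groups lay above the reference, by 0.23 and 0.24, with no call by limma. The small subunit genes petG and petL help hold the complex together. Signals of petG on day 1 were 6.77, 6.19 and 6.73, then 6.51, 6.68 and 6.98, then 6.77, 6.60 and 6.68. Those of day 5 were 6.60, 6.47 and 6.16 in the reference, 6.29, 6.55 and 6.53 with EAA, and 7.37, 6.80 and 6.93 with MEA. The MEA arrays of day 5 lay above both other groups of that day. The gene was 0.62 higher than in the reference (SE 0.19, adjusted p = 0.0492, limma), and 0.39 as replicate 2 alone, a single array (adjusted p = 0.367); of 6 fits that left out 1 array it passed in the 1 without MEA replicate 2. For petL the day 1 signals were 10.80, 10.81 and 11.00, then 10.79, 11.02 and 11.20, then 11.10, 10.18 and 10.98. Day 5 gave 11.20, 10.90 and 10.44, then 10.99, 10.94 and 10.64, then 11.59, 10.82 and 11.12. The groups overlapped in every comparison of petL, and none passed.

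In the ATP synthase, atpI encodes the membrane subunit of the proton channel and atpF a subunit of the stator stalk. Signals of atpI on day 1 were 7.05, 6.59 and 6.97 in the reference, 6.74, 6.88 and 7.20 with EAA, and 7.34, 6.84 and 6.82 with MEA. By day 5 they were 6.34, 6.77 and 6.46, then 6.78, 6.13 and 5.98, then 6.93, 6.82 and 7.15. With EAA atpI fell by 0.64 (SE 0.22, adjusted p = 0.0321, limma), although replicate 1 of day 5, at 6.78, overlapped with day 1. The reference difference was -0.35 (adjusted p = 0.238), and with EAA against MEA on day 5 it was -0.67 (adjusted p = 0.0766), and -0.52 as MEA replicate 2 alone. For atpF the day 1 signals were 11.33, 11.11 and 11.22, then 11.27, 11.35 and 11.37, then 11.32, 11.12 and 11.20. The day 5 signals were 11.41, 11.35 and 10.80, then 11.07, 10.98 and 10.97, then 11.49, 11.30 and 11.55. The EAA arrays of day 5 lay below those of day 1 (-0.33, adjusted p = 0.0845) and below MEA (-0.44, adjusted p = 0.0757; -0.30 as replicate 2 alone), and neither passed by limma. Between EAA and MEA on day 5, 8 of 50 members had all EAA values below all MEA values (6.67% of all probe sets did). They were 4 of the ATP synthase (atpA, atpB, atpF and atpI), 3 of photosystem II and 1 of cytochrome b6f. For atpA and atpB the differences were only -0.08 and -0.21, and -0.038 and -0.13 as MEA replicate 2 alone.

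In the NDH complex, ndhH encodes a subunit of the arm on the stromal side, and ndhF and ndhE encode membrane subunits. Signals of ndhH on day 1 were 7.29, 6.89 and 7.55 in the reference, 7.35, 7.61 and 7.50 with EAA, and 7.64, 7.54 and 7.36 with MEA. On day 5 they were 7.39, 7.73 and 6.97, then 7.08, 6.65 and 6.56, then 6.86, 7.11 and 7.70. The EAA arrays of day 5 all lay below those of day 1, and ndhH fell by 0.73 (SE 0.24, adjusted p = 0.0265, limma), the largest fall of the 50 members there. The reference difference was 0.12, and the interaction for EAA was -0.85 (interval -1.56 to -0.14, adjusted p = 0.959). The falls of ndhH and atpI did not pass when replicate 2 or 3 of either EAA group was left out (4 of 6 such fits), nor with each array centred on its median (adjusted p = 0.0596 and 0.0639), and neither did that of psbB (0.0975). That centring raised every EAA difference between days by 0.11.

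For ndhF the day 1 signals were 4.23, 3.78 and 3.44, then 3.80, 4.09 and 3.99, then 4.01, 3.24 and 3.74 in the reference, EAA and MEA. Those of day 5 were 5.35, 4.17 and 3.77, then 5.99, 4.04 and 3.56, then 5.84, 5.51 and 3.79. Within each group of day 5 at least 1 array was high and another was near the limit for testing, with SDs of 0.818, 1.29 and 1.105. The day 1 means of ndhF, 3.81 in the reference, 3.96 with EAA and 3.66 with MEA, lay under the limit for testing. It was thus tested only through its day 5 values, so its rise between days is uncertain. The MEA difference between days, 1.38, had an interval of 0.14 to 2.63 (adjusted p = 0.196, limma), and was 1.85 as replicate 2 alone. For ndhE the day 1 signals were 8.77, 8.36 and 8.63, then 8.68, 8.80 and 8.88, then 8.80, 8.12 and 8.78. Day 5 gave 8.91, 8.99 and 8.64, then 9.05, 8.74 and 8.74, then 9.57, 8.83 and 9.56. Its MEA difference between days was 0.75 (SE 0.21, adjusted p = 0.0633, limma), with replicates 1 and 3 of day 5 above the other 16 arrays. It was 0.26 as replicate 2 alone.

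In the RNA polymerase, rpoB and rpoC1 encode parts of the catalytic core. Signals of rpoB on day 1 were 4.001, 4.20 and 4.21 in the reference, 4.19, 4.26 and 4.58 with EAA, and 4.44, 4.28 and 4.33 with MEA. By day 5 they were 4.50, 4.17 and 3.82, then 4.68, 4.11 and 4.19, then 4.52, 4.80 and 4.34. They lay close to the limit for testing, so the size of its changes is uncertain, and no comparison of rpoB passed by limma. For rpoC1 the day 1 signals were 9.25, 8.92 and 9.46, then 9.12, 9.25 and 9.36, then 9.60, 9.10 and 9.39. The day 5 signals were 9.91, 9.68 and 9.38, then 10.22, 9.57 and 9.49, then 10.68, 9.71 and 10.05. With EAA and MEA every day 5 value lay above every day 1 value, and in the reference the days overlapped. The differences were 0.45, 0.52 and 0.79 in the reference, EAA and MEA (adjusted p = 0.180, 0.110 and 0.0881), and none passed by limma. The MEA difference was 0.35 as replicate 2 alone. On day 5 the differences of the 4 polymerase genes between MEA and the reference ran from 0.37 to 0.51, with no call by limma. As replicate 2 alone they were -0.22 for rpoA, 0.63 for rpoB, 0.056 for rpoC1 and -0.21 for rpoC2, so they had no common direction there.

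Genes transcribed together were compared across arrays. The members formed 61 pairs within the operons listed and 1164 other pairs. Over the 18 arrays, which share their labelling, scaling and group differences, the median Pearson correlation was 0.47 within operons and 0.35 in other pairs, and 42.6% and 30.7% of pairs were over 0.5. The ndhH operon had the most pairs, 21, with a median of 0.54. The 10 pairs of the psbB operon, which also holds petB and petD, had a median of 0.40, and of 0.03 after group means were removed. For psaA with psaB, which lie in 1 operon, the correlation was 0.002, and for atpB with atpE it was 0.06; atpB, atpE and psaB were among the 5 members with the smallest range over arrays.

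Of 21 other plastid genes listed, 19 were measured and tested. In the reference rps18 and rpl33, for ribosomal proteins, rose by 0.62 (adjusted p = 0.00972, limma) and 0.65 (adjusted p = 0.0375). These 2 of 19 genes stand beside the 30.9% of all tested probe sets that passed there. Of the 2 genes rps18 also rose with EAA (0.54) and with MEA (0.62, and 0.67 as replicate 2 alone). It was the 1 call of 19 in each, where 36.5% and 3.92% of all tested probe sets passed. In EAA against MEA on day 5, ycf4, a photosystem I assembly factor, was lower with EAA by 0.52 (adjusted p = 0.0477, limma), and by 0.50 as MEA replicate 2 alone. There 3.85% of all tested probe sets passed. No other comparison had a call among the 19, whose median in MEA against the reference on day 5 was 0.29, and -0.069 as replicate 2 alone.

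Few nuclear partners were matched to a probe set named for 1 gene, and only matched genes are counted as measured. Of 43 listed nuclear genes for photosystem, cytochrome, ATP synthase and Rubisco-related proteins, 8 were measured. In the reference RCA, which activates Rubisco, rose by 0.55 (adjusted p = 0.00175, limma). With EAA, ATPC1, for the gamma subunit of the ATP synthase, and PSBY and PSBW, of photosystem II, fell by 0.69, 0.77 and 0.59 from day 1 to day 5. These calls, 1 of 8 in the reference and 3 of 8 with EAA, stand beside the 30.9% and 36.5% of all tested probe sets that passed there. Of 25 nuclear NDH genes 5 were measured. CRR42 fell by 0.57 in the reference and by 0.85 with EAA, and CRR41 fell by 0.85 with EAA. Both are needed for assembly of the complex. These NDH calls, 1 of 5 in the reference and 2 of 5 with EAA, stand beside the same 30.9% and 36.5%. Of 36 RNA processing factors 10 were measured and 7 tested. Among the 7, 1 passed between days in the reference, 1 between days with MEA and 1 between MEA and the reference on day 5. Of all tested probe sets 30.9%, 3.92% and 10.7% passed there. The editing factor OTP84 fell by 0.66 in the reference, and OTP81 fell by 0.82 with MEA and was 0.49 lower with MEA than in the reference on day 5 (0.80 and 0.47 lower as replicate 2 alone). Of 26 polymerase-associated proteins, 1 was measured, MRL7-L, 0.54 lower with MEA than in the reference on day 5 (0.37 as replicate 2 alone); none of the sigma factors was matched.

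Genes of the other organelle genome served as a comparison. Of 34 mitochondrion-encoded genes 11 were measured and 8 tested. In the reference nad4L and nad9, for respiratory complex I, rose by 0.80 and 0.87 (adjusted p = 0.00457 and 0.0414, limma). With EAA nad9, cox2 and nad4L rose by 1.31, 0.77 and 0.59. These 2 and 3 of 8 genes stand beside the 30.9% and 36.5% of all tested probe sets that passed there. On day 5 nad4L was 0.78 lower with MEA than in the reference (adjusted p = 0.0172), and 0.63 lower as MEA replicate 2 alone.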

How the data were processed

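The deposited values are log2 signals of 22810 probe sets on 18 arrays, as judged from their range (2.25 to 14.02). MAS5 is the 1 tool that the submitters' processing notes name, without a version, and neither a normalization nor a log step is stated there. Values were used as deposited. The 64 control probe sets were left out. Of the rest, 13513 had 1 gene in the platform annotation, 503 had several and 8794 had none here; symbols were updated through the RefSeq table of TAIR10.1, in which 13436 matched. The files name no genome build, so coordinates are left out.

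Probe sets whose mean over the 18 arrays reached the 40th percentile (4.01) were tested, 13648 in all. The 6 group means were estimated together by limma 3.58.1 (R 4.3.3), using lmFit and a trended eBayes step; 12 residual degrees of freedom remained, and all comparisons came from this fit. P-values were two-sided and adjusted by Benjamini-Hochberg within each comparison over all tested probe sets, with a threshold of 0.05. The script was checked on simulated data. The common spread does not follow the wider spread of MEA on day 5, whose median SD over all tested probe sets was 0.337 against 0.126 to 0.201 in the other groups.

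Values on every array are given for psbA, psbD, rbcL, rpoB and accD, for the member of each complex with the largest reference difference between days, and for the 3 members with the smallest p in each comparison. The members and gene lists were chosen with earlier results of these data known. Alternatives tried were median centring, quantile normalization, no filter, a 60th percentile filter, no trend, array weights, the replicate number as a block, the compared groups alone, and arrays left out.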

Additional observations from a re-analysis of the deposited data

How the results depend on the processing

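No result changed sign among those that passed. Changing only the filter or the trend cannot alter a difference, so such settings could not change a sign. The call of rbcL in the reference held in every setting run. With median centring 3 members passed in the reference (petB, psbE and rbcL), 1 with EAA (petB, higher) and 1 with MEA (ndhE) from day 1 to day 5. Array weights gave MEA day 5 replicate 2 the lowest weight of the 18 arrays, 0.076, so it counted for little in that fit. With them, 2, 9 and 20 members passed between days in the reference, EAA and MEA. The same weights gave 21 for MEA against the reference on day 5 (median 0.41), 26 for EAA against MEA and 13 for the MEA interaction (median 0.29). With replicate 2 left out instead, 40.2% of all probe sets passed for MEA against the reference on day 5 and 43.2% for EAA against MEA. Those shares belong to the fit without replicate 2, not to the weighted fit. Shares with median centring, with the weights and without the whole MEA day 5 group are not given here. Except where a share of all probe sets is given, the counts in this paragraph are not read as a trait of the members. Without MEA day 5 replicates 1 and 3, which leaves that group 1 array assumed to vary like the others, 5 members passed between days with EAA (atpI, ndhH, psaA, psbB and rpoC1) and, with that single array, 2 with MEA (ndhJ and psbD), where 37.9% of all probe sets did. On day 5, 0 passed for MEA against the reference (median -0.017) and 0 for EAA against MEA (median -0.057), and the median of the MEA interaction was -0.026. Without the whole MEA day 5 group 5 passed with EAA. For MEA against the reference and EAA against MEA on day 5, 0 members passed with no filter, 0 in the compared groups alone, 0 with the replicate block, and 0 without replicate 1 of both EAA and MEA on day 5, a setting chosen after seeing the data. The cause was not tested in any of these.

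Replicate numbers did not pair the arrays: 45 same-numbered pairs had a median correlation of deviations of 0.02 (-0.44 to 0.43), and 6 of 18 arrays correlated best with their own number. With the replicate block 1 member passed between days with MEA (ndhE), and the counts in the reference and EAA stayed at 1 and 3.

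Leaving out 1 array gave 1 to 1 members between days in the reference, 0 to 2 with EAA, 0 to 7 with MEA, 0 to 14 for MEA against the reference on day 5, 0 to 17 for EAA against MEA, and 0 to 2 for the MEA interaction. The counts of 14 and 17 came without MEA day 5 replicate 2, as did the highest counts of the other MEA comparisons. In that fit 40.2% of all probe sets passed for MEA against the reference on day 5 and 43.2% for EAA against MEA. In the main fit 10.7% and 3.85% did. Shares for the other fits are not given here, so these counts are not read as a trait of the members. None passed with EAA between days without replicate 3 of either EAA group, none for MEA against the reference on day 5 without reference replicate 3 or MEA replicate 1 or 3, and none for EAA against MEA without any 1 array but MEA replicate 2. The 3 day 1 comparisons, EAA against the reference on day 5 and the EAA interaction had 0 members in all settings. Each member has 1 probe set, so counting probe sets singly was not run. With 3 arrays a group, the members' 95% intervals reached a median of 0.38 either way.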
